A study of Mus musculus with 62 samples.

Results

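The 97 genes described here are named as protein subunits of the 5 complexes of oxidative phosphorylation. A name does not by itself show that each one encodes a structural subunit of the complex it is counted with. They were taken from the 53801 rows of a count matrix by name: symbols starting with Nduf (complex I), Sdha to Sdhd (complex II), Uqcr (complex III), Cox4i, Cox5, Cox6, Cox7 or Cox8 (complex IV) and Atp5 (complex V), and the protein-coding genes of the mitochondrial genome. Assembly factors and the muscle isoform Cox6a2 were left out. Of 101 names that matched, 4 (Ndufa11b, Ndufb4c, Ndufs6b and Cox6c2) belonged to processed pseudogenes and were kept apart. The remaining genes were 84 nuclear ones (38 of complex I, 4 of II, 8 of III, 17 of IV and 17 of V) and 13 mitochondrial ones (7 of complex I, 1 of III, 3 of IV and 2 of V). Of the 97, 95 passed the filter on low counts, among 19865 genes tested. Cox7b2, with 41 counts in all, and Cox8c, with 0 counts, did not pass and enter no comparison.

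Oxidative phosphorylation is the chain of reactions in the inner mitochondrial membrane that turns electrons from NADH and succinate into a proton gradient and uses that gradient to make ATP. Complexes I to IV carry the electrons and complex V is the ATP synthase. Complex II is encoded in the nucleus alone, whereas the other complexes combine nuclear subunits, which are imported, with a few core subunits made from the mitochondrial genome. Microglia, the resident macrophages of the brain, use both this pathway and glycolysis, and inflammatory activation is known to shift the balance between them.

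The samples were RNA-seq libraries of CD11b+ cells, described in the series title as microglia, from wild-type mice (WT), mice without the inflammasome sensor gene Nlrp3 (NLRP3), mice with the APP/PS1 transgenes of an Alzheimer's disease model (APPPS1) and mice with both (APPPS1_NLRP3). Each genotype was sampled at 4, 6 and 12 months of age, and a further set of 12-month libraries of each genotype carries the tag Mxo4, whose meaning the sources used here do not give. These 16 groups held 3 to 5 libraries each. The labels used here name neither the promoter of the transgenes nor the animals behind the libraries, so the spread behind each p-value is that between libraries and may be technical. In bulk RNA of this kind, fewer cells of a type and less RNA per cell cannot be told apart.

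Library totals had a median of 18392142 counts and a maximum of 27604393. APPPS1_6m replicate 21 held 659 counts, stayed in the fit and is left out of all means and figures, which rest on 61 libraries. NLRP3_12m replicate 45 (1394435 counts) and APPPS1_12m replicate 41 (6187249 counts) were the next shallowest. Nlrp3 reached 0 to 2.27 CPM (counts scaled to a common library total) in the 31 libraries labelled as lacking it and 60.4 to 271 CPM in the other 30. Cst7, which encodes cystatin F and is high in microglia of amyloid mice, went against 1 label: it was 10.9 CPM in the library labelled APPPS1_12m_Mxo4 replicate 56, against 1650 to 2400 CPM in the other 3 libraries of that group and 7.25 to 34 CPM in the tagged groups without the transgenes. The 10 microglial markers summed to 34032 CPM or more in every library, so the labelled cell type was present throughout. The untagged 12-month groups differ in sex as read from Xist and Y-linked genes: WT_12m and APPPS1_12m were all female, and NLRP3_12m and APPPS1_NLRP3_12m were all male. Of all 61 libraries, 42 read as female and 19 as male, so other groups held males as well. Other comparisons may therefore differ in sex too, where this is not stated.

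Promoter windows are shown for 6 nuclear subunits, chosen with their values known. Ndufa1 and Cox7a2l were called in most of the 8 transgene comparisons below, Cox6b1 and Uqcrh were called in fewer of them, and Ndufv1 and Sdha, called in none with all libraries in, are the contrast. Each run is the 250 bases before the RefSeq transcription start in GRCm38.p6, 5′ to 3′ on the gene's strand, which is the minus strand for all 6. The RefSeq start can differ from the end of the gene model used for counting here. Capitals mark matches to GCGCANGCG, the type of motif bound by NRF1, or to CCGGAAG, the type bound by ETS factors, both searched on both strands. These factor families are known for their sites in promoters of respiratory chain genes.
Ndufa1, chrX:37191239-37191488: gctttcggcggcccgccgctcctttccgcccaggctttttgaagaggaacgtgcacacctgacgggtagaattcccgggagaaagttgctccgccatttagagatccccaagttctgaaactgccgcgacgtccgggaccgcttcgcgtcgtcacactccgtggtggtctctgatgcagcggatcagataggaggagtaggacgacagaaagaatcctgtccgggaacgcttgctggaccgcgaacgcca
Cox7a2l, chr17:83514334-83514583: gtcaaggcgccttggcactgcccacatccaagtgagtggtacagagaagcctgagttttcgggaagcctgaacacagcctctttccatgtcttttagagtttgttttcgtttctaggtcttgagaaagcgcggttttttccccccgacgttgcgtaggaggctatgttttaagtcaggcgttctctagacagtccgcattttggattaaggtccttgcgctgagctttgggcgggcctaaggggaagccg
Uqcrh, chr4:116075071-116075320: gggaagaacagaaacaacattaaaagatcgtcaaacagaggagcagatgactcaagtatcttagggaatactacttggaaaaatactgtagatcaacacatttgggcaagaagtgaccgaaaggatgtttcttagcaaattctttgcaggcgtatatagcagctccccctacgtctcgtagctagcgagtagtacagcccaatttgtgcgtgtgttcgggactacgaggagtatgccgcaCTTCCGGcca
Cox6b1, chr7:30626115-30626364: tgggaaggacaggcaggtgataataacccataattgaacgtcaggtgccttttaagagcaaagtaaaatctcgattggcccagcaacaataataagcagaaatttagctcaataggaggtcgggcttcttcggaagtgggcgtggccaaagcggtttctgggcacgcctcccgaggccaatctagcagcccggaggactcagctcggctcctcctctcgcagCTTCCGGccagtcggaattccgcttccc
Ndufv1, chr19:4012756-4013005: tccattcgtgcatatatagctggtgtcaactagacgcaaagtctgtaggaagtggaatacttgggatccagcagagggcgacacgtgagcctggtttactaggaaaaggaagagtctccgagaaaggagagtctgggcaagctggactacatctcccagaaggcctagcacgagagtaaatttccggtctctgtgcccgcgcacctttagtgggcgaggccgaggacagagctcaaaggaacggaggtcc
Sdha, chr13:74350241-74350490: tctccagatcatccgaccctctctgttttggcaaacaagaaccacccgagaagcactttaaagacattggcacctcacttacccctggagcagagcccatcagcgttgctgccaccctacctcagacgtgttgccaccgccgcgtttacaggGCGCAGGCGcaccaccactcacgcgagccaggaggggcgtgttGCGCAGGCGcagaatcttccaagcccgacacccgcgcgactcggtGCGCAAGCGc

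The windows of Ndufa1, Cox7a2l and Ndufv1 held neither motif, those of Uqcrh and Cox6b1 held 1 ETS-type match each, and that of Sdha held 3 NRF1-type matches. RefSeq promoters were matched for 67 of the 84 nuclear subunit genes, which gave 72 windows. The NRF1-type motif was in 15 of the 72 windows (20.8%), against 5.16% of all 32851 promoter windows of that length. The ETS-type motif was in 12 windows (16.7%), against 6.91% of all, and AANATGGCG, the type bound by YY1, was in 3 (4.17%), against 1.12%. A match describes letters only, and no match says only that these letters are not in this window.

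Among the nuclear genes, levels per kilobase of exon spanned a wide range. On the scale of CPM per kb, with CPM scaled by edgeR's TMM factors and averaged over the libraries, the nuclear subunits had a median of 31.9 and ran from 0.582 to 203, while the median over the 14865 protein-coding genes tested was 4.02. The highest were Cox8a (203), Ndufa1 (161), Cox6a1 (152), Cox6b1 (127) and Atp5b (127), the catalytic beta subunit of the ATP synthase. By complex, the medians were 24.9 CPM per kb for I, 60.98 for II, 44.7 for III, 37.2 for IV and 27.8 for V.

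Where the chain has alternative isoforms, the ubiquitous one carried nearly all of the level. Cox4i1 stood at 112 CPM per kb and its lung and hypoxia isoform Cox4i2 at 0.582. Ndufa4 was at 43.1 and its paralogue Ndufa4l2 at 0.617; both are counted with complex I here by their names, although the Ndufa4 protein is known as a subunit of complex IV. Cox6b1 was at 127 and the testis isoform Cox6b2 at 1.29. Cox7a2 was at 60.2 and the heart and muscle isoform Cox7a1 at 0.622. Cox8a was at 203 and Cox8b at 0.743. Near-identical copies blur some levels: other loci match 71.1% of the Atp5h transcript, 62.8% of Uqcrb, 45.1% of Cox5b, 43.4% of Atp5f1 and 16.9% of Atp5g2, so counts of these genes are uncertain. All 3 genes for the c subunit of the ATP synthase ring were present, Atp5g3 at 47.2, Atp5g2 at 22.1 and Atp5g1 at 10.1 CPM per kb.

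The 13 mitochondrial genes had a median of 353 CPM per kb but spread from 2.82 to 1569. Mt-Cytb, the core subunit of complex III, was highest at 1569, followed by mt-Nd1 at 1124, mt-Co1 at 1102, mt-Atp8 at 859, mt-Nd2 at 508, mt-Nd5 at 464, mt-Nd4 at 353, mt-Nd6 at 279 and mt-Atp6 at 129. The last 4 were mt-Co2 at 10.9, mt-Nd3 at 6.83, mt-Nd4l at 4.10 and mt-Co3 at 2.82 CPM per kb. These 4, and mt-Atp6, have a copy on chromosome 1, listed as an unprocessed pseudogene, that matches 99% or more of their length at 98% identity or more. Mt-Nd4 and mt-Co1 are matched over 63.6% and 31.3% of their length, and the other 6 have no such match.

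The start of mt-Nd3, a small complex I subunit, and of its copy Gm28438 show how little separates them. Positions are counted from the first base of mt-Nd3, 60 bases are shown 5′ to 3′ on the gene's strand, and the capital marks T3C, the 1 mismatch in 345 aligned bases.
mt-Nd3, chrM:9459-9806, plus strand: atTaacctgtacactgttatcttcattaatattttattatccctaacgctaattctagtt
Gm28438, chr1:24612775-24613119, minus strand: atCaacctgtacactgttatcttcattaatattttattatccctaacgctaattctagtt
Summed over the libraries, mt-Nd3 was given 2567 counts and Gm28438 1504, so the copy took 36.9% of both. For mt-Co3 the copy Gm28437 took 73.2% (6520 counts against 2388), for mt-Nd4l 20.3%, for mt-Co2 14.8% and for mt-Atp6 2.38%. Copies of mt-Nd4 and mt-Co1 took 0.0569% and 0.107%. How reads that align to several places were counted is not given in the sources used here, so the levels of the 5 genes copied nearly whole are uncertain, and their low values are not read as low expression.

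As a share of all counts in a library, the nuclear subunits took 0.427% to 0.770% (median 0.507%) and the mitochondrial ones 0.349% to 2.05% (median 0.553%). Nuclear shares were steadier within groups than mitochondrial ones. In WT they were 0.446% ± 0.0168 (SD) at 4 months, 0.492% ± 0.0309 at 6 and 0.476% ± 0.0325 at 12, with 0.468% ± 0.0314 in WT_12m_Mxo4. The nuclear group means were highest in APPPS1_12m, at 0.624% ± 0.123, and there replicates 35 (0.770%) and 41 (0.736%) stood above the other 3 (0.5003% to 0.589%). NLRP3_12m at 0.601% ± 0.0927 and APPPS1_NLRP3_12m at 0.600% ± 0.0531 came next, and neither differed from APPPS1_12m beyond these SDs.

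Mitochondrial shares were lowest in WT_12m, where the 3 libraries gave 0.474%, 0.433% and 0.349%, and their group mean of 0.419% ± 0.0637 did not differ from WT_4m (0.459% ± 0.0801) beyond the SDs. They were highest in NLRP3_12m, at 1.12% ± 0.666, where the 4 libraries gave 0.539%, 0.766%, 2.05% and 1.11%. APPPS1_NLRP3_12m followed at 0.994% ± 0.491 and APPPS1_6m at 0.957% ± 0.204. In the 4 tagged groups the means lay between 0.449% and 0.510%, below those of both untagged 12-month groups without Nlrp3.

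**Figure D1:**
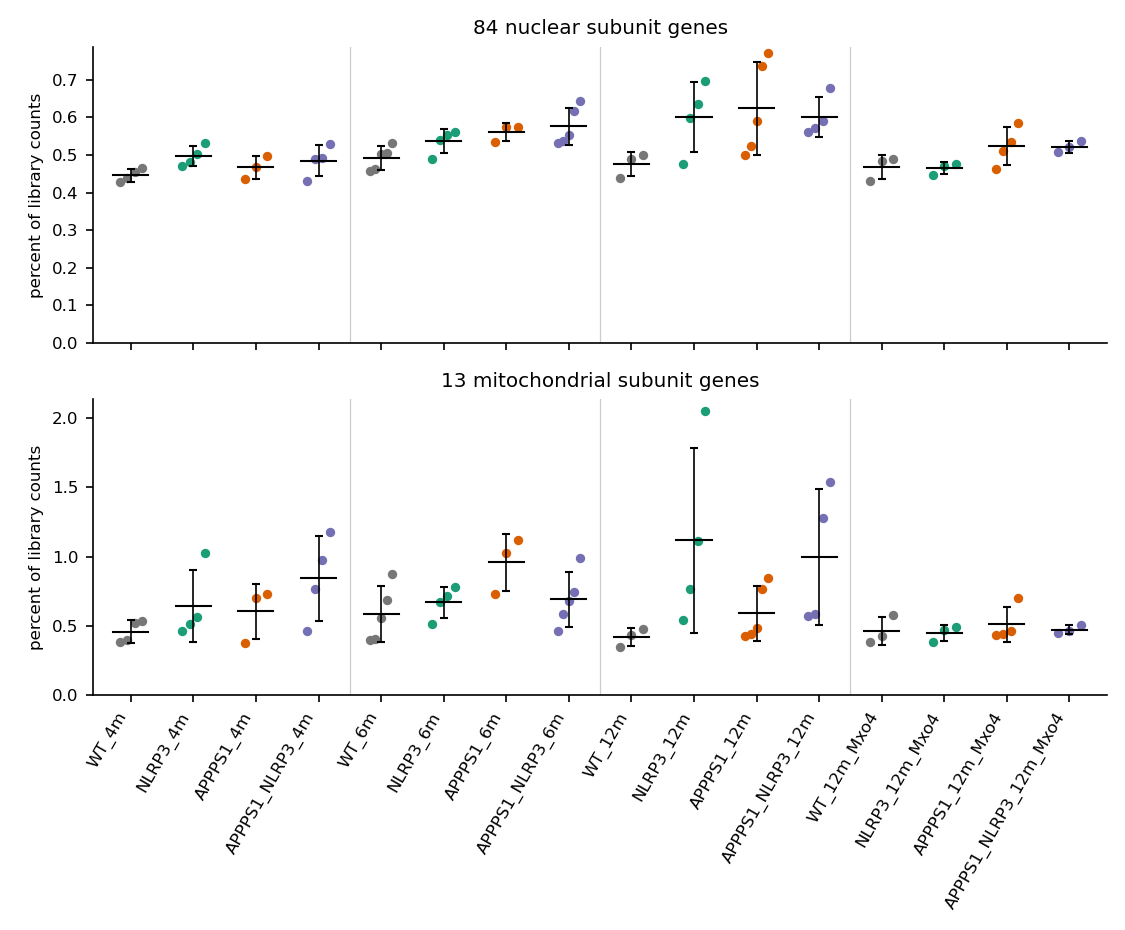
Percent of library counts taken by the nuclear (upper panel) and mitochondrial (lower panel) subunit genes in the 16 groups. Points are libraries and bars give the mean ± SD. NLRP3_12m spreads from 0.539% to 2.05% in the lower panel, and APPPS1_12m holds the highest nuclear shares.

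With Nlrp3 present and all libraries in, the transgenes went with higher subunit levels most widely in the untagged 12-month groups. Without Nlrp3, 7 of 95 subunits were called higher at 6 months, beside 6.16% of all genes. At 12 months 2 of 95 were, beside 5.53%. The first count is near the share of all genes and the second is below it. In APPPS1_12m against WT_12m, 66 of the 82 nuclear subunits tested and 1 of 13 mitochondrial ones, mt-Nd3, were called higher and none lower (edgeR's quasi-likelihood test at a threshold of 0.05, with the Benjamini-Hochberg adjustment made over the whole table). Of all genes tested, 11.1% were called higher, 2208 against 1382 called lower. The median log2 difference was 0.75 over the nuclear subunits, 0.81 over the mitochondrial ones and -0.07 over all genes. This breadth rested on 2 of the 5 APPPS1_12m libraries, replicates 35 and 41, which also had the lowest TMM factors of the group (0.790 and 0.745, against 0.879 to 0.953). Without them, a comparison added after the data were seen, 13 of 82 nuclear subunits (15.9%) and 0 of 13 mitochondrial ones were called higher, beside 6.39% of all genes, and the medians were 0.36, 0.17 and -0.04. The mitochondrial 0 is edgeR's, and DESeq2 was not run without these libraries. Of the nuclear subunits, 78 had a positive difference with all libraries and 76 without those 2.

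Ndufa1, an X-linked accessory subunit of the membrane arm of complex I (chromosome X, 37187588 to 37191163, minus strand), showed the largest called nuclear difference. Its TMM-scaled level was 34.8, 34.2 and 31.8 CPM in WT_12m and 119, 261, 82.2, 114 and 233 CPM in APPPS1_12m. All 5 transgenic libraries were above all 3 wild-type ones, with replicates 35 (261) and 41 (233) highest. The log2 difference was 2.26 ± 0.29 (SE, edgeR adjusted p = 1.16e-07), and it was 1.52 ± 0.24 (adjusted p = 2.25e-05) without replicates 35 and 41.

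Cox7a2l, which encodes a protein that helps join complexes III and IV into supercomplexes and is grouped with complex IV here by its name (chromosome 17, 83501918 to 83517330), was 50.5, 45.1 and 48.4 CPM in WT_12m. In APPPS1_12m it was 86.9, 109, 66.3, 70.5 and 171 CPM, again with no overlap between the groups. The log2 difference was 1.08 ± 0.16 (edgeR adjusted p = 1.55e-06) with all libraries and 0.69 (adjusted p = 0.000448) without the 2. A copy, Gm6969, matches 17.8% of its transcript.

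In complex III, Uqcrh, the hinge protein, rose from 37.8, 33.5 and 28.97 CPM to 75.7, 160.5, 47.7, 59.4 and 113 CPM, a log2 difference of 1.45 ± 0.22 (edgeR adjusted p = 1.67e-06). The 2 groups did not overlap, and without the 2 libraries the difference was 0.84 (adjusted p = 0.00073). The iron-sulfur subunit Uqcrfs1 rose by 0.66 on the log2 scale and by 0.34 without them (edgeR adjusted p = 0.0448). The core protein Uqcrc1 gave 0.20 (adjusted p = 0.160) and was not called. Of the 8 nuclear complex III genes, 7 were called, with a median of 0.91.

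Complex IV had 11 of 15 tested nuclear genes called and a median of 1.08. Cox4i1, its main regulatory subunit, was 123, 92.9 and 133 CPM in WT_12m and 234, 300, 180.1, 215 and 411 CPM in APPPS1_12m, without overlap. The log2 difference was 1.21 ± 0.19 (edgeR adjusted p = 3.67e-06) and 0.85 without replicates 35 and 41 (adjusted p = 0.00137). Its exons share 154 bases with Emc8 on the other strand. Cox6b1, a small subunit that bridges the enzyme's dimer, went from a mean of 67.4 ± 8.19 to 147 ± 55.6 CPM, with log2 differences of 1.12 and 0.63 under the same settings. Cox7a2 (1.43) and Cox6c (1.28) were among those called with all libraries, and Cox5a showed 0.46. The low isoforms did not follow: Cox4i2 gave -0.11, Cox6b2 -0.37, Cox8b -2.15 and Cox7a1 0.52, none called.

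Complex I had 33 of 38 genes called with all libraries and a median of 0.72, and complex V 13 of 17 with a median of 0.74. The small accessory subunits Ndufa2 (1.26) and Ndufv3 (0.79) were called in both settings, as was Atp5g2 (1.17, and 0.61 without the 2 libraries). The subunits that hold the catalytic and electron-carrying sites moved less. Ndufv1, which binds NADH, was 59.3 ± 9.39 CPM in WT_12m and 59.2 ± 10.98 in APPPS1_12m, a log2 difference of 0.02 (edgeR adjusted p = 0.947). Ndufs1 gave 0.18 (adjusted p = 0.254), Atp5a1 0.17 (adjusted p = 0.172) and Atp5b 0.18 (adjusted p = 0.196). None of these 4 was called in this comparison.

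Complex II had the smallest median of the nuclear complexes, 0.33, with 2 of 4 genes called. Sdha, the flavoprotein that oxidises succinate, was 301, 308 and 345 CPM in WT_12m and 327, 372, 327, 350.2 and 317 CPM in APPPS1_12m, so the groups overlapped (log2 difference 0.09, edgeR adjusted p = 0.501). Sdhb, the iron-sulfur subunit, and the membrane anchor Sdhd were called at 0.43 (adjusted p = 0.00592) and 0.42, while Sdhc gave 0.23. Neither Sdhb nor Sdhd was among the 13 called without replicates 35 and 41.

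The summed TMM-scaled level of nuclear complex IV was 635 ± 78.3 CPM in WT_12m and 1364 ± 498 in APPPS1_12m, and that of complex I was 1466 ± 84.2 and 2371 ± 812. For complex III the sums were 442 ± 21.7 and 741 ± 273, for complex V 1685 ± 118 and 2368 ± 518, and for complex II 559 ± 34.9 and 651 ± 84.6. The SD of APPPS1_12m was the larger one in every complex.

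The mitochondrial genes were positive in all 13 cases in APPPS1_12m against WT_12m, yet mt-Nd3 alone was called (2.10 ± 0.68, edgeR adjusted p = 0.0240), and its adjusted p was 0.511 without replicate 35. Mt-Nd3 was scarce, at 0.426 to 0.671 CPM in WT_12m, and its counts are uncertain because of its nuclear copy. Mt-Cytb averaged 1158 ± 149 CPM in WT_12m and 1969 ± 932 CPM in APPPS1_12m, where replicates 35 and 41 gave 2749 and 3200 and the other 3 gave 1247 to 1330. The lowest of those 3 lies within 1 SD of the wild-type mean. The difference was 0.78 (edgeR adjusted p = 0.119). Mt-Atp6 gave 1.12 (adjusted p = 0.0509) and mt-Co3 1.52 (adjusted p = 0.127).

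Markers of other cell types differed too. Summed over 10 genes, astrocyte markers were 280 to 529 CPM in APPPS1_12m and 465 to 655 in WT_12m, with 9 of 10 differences negative and 1 marker called higher (1.79). The 11 neuronal markers summed to 19.4 to 110 and 35.2 to 248 CPM, all with negative differences and none called. Of 8 monocyte markers 3 were called higher (median 1.14), as were 1 of 3 lymphocyte markers tested (2.40) and 1 of 10 markers of border-associated macrophages (2.17), of which 1 other was called lower. The 8 neutrophil markers reached 2472 CPM in APPPS1_12m replicate 38, against 40.4 to 175 in the other 4 and 77.1 to 235 in WT_12m, and none was called. All 10 endothelial markers had a negative difference (median -0.54, 1 called lower), as had all 10 oligodendrocyte markers tested (-0.80, none called). The 8 choroid plexus and ependyma markers and 5 erythroid markers tested had none called (medians -0.48 and 0.55). Of the 10 microglial markers, 1 was called higher and 2 lower (median -0.20). The part of these cells in the result was not tested.

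Length went along with the size of the difference. In APPPS1_12m against WT_12m, nuclear subunits with up to 1000 exon bases had a median log2 difference of 0.93 (16 of 20 called), longer ones up to 2000 bases 0.84 (29 of 32), those above 2000 and up to 4000 bases 0.43 (14 of 19) and those above 4000 bases 0.53 (7 of 11). The other protein-coding genes gave medians of 0.45, 0.23, 0.02 and -0.13 in the same bins, with 29.6%, 25.7%, 15.4% and 8.31% called higher. Short genes were therefore higher in general, and the subunit medians lay above those of the other genes in each bin. Without replicates 35 and 41 the subunit medians were 0.39, 0.40, 0.18 and 0.25 and the others' 0.21, 0.07, 0.00 and -0.05. Across genes, which are not independent replicates, Spearman's rho between length and the difference was -0.293 over 82 subunits and -0.233 over 14783 other genes. What part length has in the differences was not tested.

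**Figure D2:**
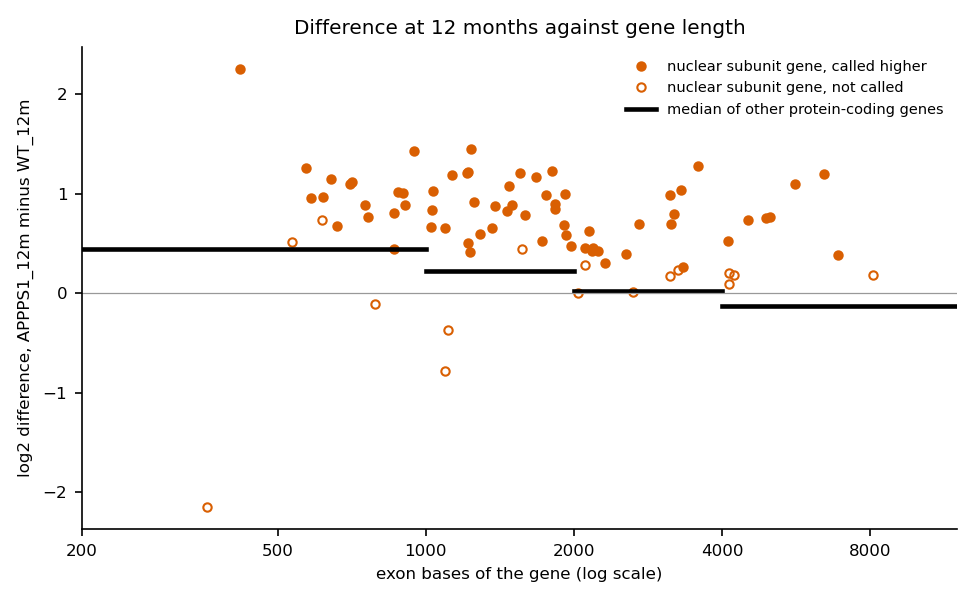
Log2 difference APPPS1_12m minus WT_12m of each nuclear subunit against its exon length in bases, filled where called. Lines give the medians of other protein-coding genes in 4 length bins (0.45, 0.23, 0.02 and -0.13), and the subunit medians (0.93, 0.84, 0.43 and 0.53) lie above them.

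Across the 8 comparisons of transgenic with non-transgenic groups, which share no libraries but come from 1 fit, Ndufa1 and Cox7a2l were called higher in 6: at 6 and 12 months and in the tagged set, with and without Nlrp3. Cox4i1 was called in 3, 5 subunits (Atp5e, Cox6b1, Ndufa2, Ndufb8 and Ndufv3) in 2, 59 in 1 and 28 in none. All 59 single calls came from APPPS1_12m against WT_12m, where 67 subunits were called with all libraries in. Without the 2 libraries on which that breadth rested, 13 nuclear subunits were called there. How many of all genes were called in as many of the 8 comparisons is not given here. These counts therefore have no share of all genes to be read against. No subunit was called lower in any of the 8.

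At 4 months neither comparison had a called subunit by edgeR. APPPS1_4m against WT_4m gave 0 of 95, with 0.0252% of all genes called in either direction, 0 subunits at an unadjusted p under 0.05 and 0 by DESeq2. The smallest p was that of Sdha (log2 difference 0.19, edgeR adjusted p = 1.0), and the medians were 0.04 for nuclear and 0.38 for mitochondrial genes. APPPS1_NLRP3_4m against NLRP3_4m also gave 0, with 0.0101% of all genes called, 1 subunit at an unadjusted p under 0.05 (Ndufs3, -0.28) and 0 by DESeq2. Ndufa1 averaged 31.9 ± 2.71 CPM in WT_4m, 38.4 ± 1.08 in APPPS1_4m, 40.3 ± 5.87 in NLRP3_4m and 39.6 ± 3.25 in APPPS1_NLRP3_4m.

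At 6 months, APPPS1_6m against WT_6m had 3 subunits called higher of 95, beside 2.06% of all genes, with medians of 0.21 for nuclear and 0.69 for mitochondrial genes. Ndufa1 was 73.0, 74.8 and 73.7 CPM in APPPS1_6m against 32.5 to 43.3 in WT_6m, without overlap (log2 difference 0.96 ± 0.25, edgeR adjusted p = 0.0239). Cox7a2l was 67.3, 71.9 and 63.8 CPM against a mean of 46.04 ± 2.85 (0.54 ± 0.15, adjusted p = 0.0353), and Cox4i1 averaged 205 ± 18.1 against 131 ± 20.2 CPM (0.64 ± 0.18, adjusted p = 0.0330). With the first of the 3 numbers in the library titles added as a term, 0 subunits were called. All 3 calls were also lost when some single libraries were left out, with adjusted p up to 0.0966, 0.141 and 0.193 for Ndufa1, Cox7a2l and Cox4i1. Mt-Cytb averaged 2631 ± 473 CPM in APPPS1_6m and 1499 ± 462 in WT_6m (0.69, adjusted p = 0.255). Neuronal markers moved with these genes: they summed to 187 to 470 CPM in APPPS1_6m and 39.6 to 188 in WT_6m, with 11 of 11 differences positive (median 1.89) and 1 called. Endothelial markers summed to 297 to 628 and 475 to 1301 CPM, with 10 of 10 negative (median -1.11) and none called, and the part of these cells was not tested.

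Without Nlrp3, APPPS1_NLRP3_6m against NLRP3_6m had 7 nuclear subunits called higher, beside 6.16% of all genes, with a nuclear median of 0.29. Without replicate 31 of the transgenic group 4 were called, and without replicate 29 of it 20 were. RLE scaling changed the split over all genes from 1224 higher and 372 lower to 847 and 979, and the median over all genes from -0.04 to -0.15. Ndufa1 was 71.6, 122, 120, 74.4 and 67.6 CPM in the transgenic group against 34.1 to 51.99 CPM (1.17 ± 0.24, edgeR adjusted p = 0.000833), again without overlap. Cox7a2l averaged 72.4 ± 9.96 against 47.2 ± 4.83 CPM (0.60). The others called were Ndufv3 (0.55), Cox6b1 (0.69), Cox4i1 (0.65), Atp5e, the epsilon subunit of the ATP synthase (0.75), and Ndufa2 (0.61, adjusted p = 0.0498). Of the 10 astrocyte and 10 endothelial markers, 3 and 2 were called lower (medians -0.79 and -0.96), and none of 11 neuronal markers was called (median -0.18); their part was not tested.

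At 12 months on the Nlrp3-deficient background, 2 subunits were called higher, beside 5.53% of all genes. Ndufa1 was 123, 113, 108 and 101 CPM in APPPS1_NLRP3_12m and 37.7, 57.4, 56.3 and 38.5 CPM in NLRP3_12m, without overlap (1.21 ± 0.26, edgeR adjusted p = 0.00122). Cox7a2l was 76.2, 88.7, 71.6 and 99.9 CPM against a mean of 55.5 ± 5.58 (0.54, adjusted p = 0.0171). The medians were 0.11 over nuclear and -0.08 over mitochondrial genes, and 2 of 95 is below the share of all genes called. Sdha averaged 375 ± 4.06 against 317 ± 24.1 CPM (0.24, adjusted p = 0.0804).

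In the tagged set, 3 of 95 subunits were called higher in APPPS1_12m_Mxo4 against WT_12m_Mxo4. That is near the 3.44% of all genes called higher. Ndufa1 was 143, 145 and 103 CPM in 3 libraries and 37 in the library labelled replicate 56, against 37.7, 41.7 and 45.4 CPM in WT_12m_Mxo4 (1.35 ± 0.28, edgeR adjusted p = 0.00164). Cox7a2l was 82.0, 81.0 and 82.4 CPM and 52.96 in replicate 56, against 51.2 ± 0.487 (0.56, adjusted p = 0.0313), and Ndufb8 was the third (0.52). Replicate 56 thus lay with the groups without the transgenes for both genes. Without it, 22 of 82 nuclear subunits (26.8%) and 0 of 13 mitochondrial ones were called higher, beside 6.61% of all genes, with a nuclear median of 0.38 in place of 0.31. Ndufa1 was then 1.65 ± 0.25 (adjusted p = 1.88e-06), Cox7a2l 0.73 (0.0009), Cox4i1 0.77 (0.00368), Cox6b1 0.80 and Sdha 0.32 (0.0162).

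In APPPS1_NLRP3_12m_Mxo4 against NLRP3_12m_Mxo4, 2 of 95 subunits were called higher, below the 3.5% of all genes called higher. Ndufa1 was 103, 106 and 98.5 CPM against 47.4, 40.6 and 38.8 (1.30 ± 0.30, edgeR adjusted p = 0.00331), and Cox7a2l averaged 85.5 ± 6.62 against 52.4 ± 3.53 CPM (0.66, adjusted p = 0.0134). All transgenic libraries were above all others for Ndufa1, and the nuclear median was 0.24.

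**Figure D3:**
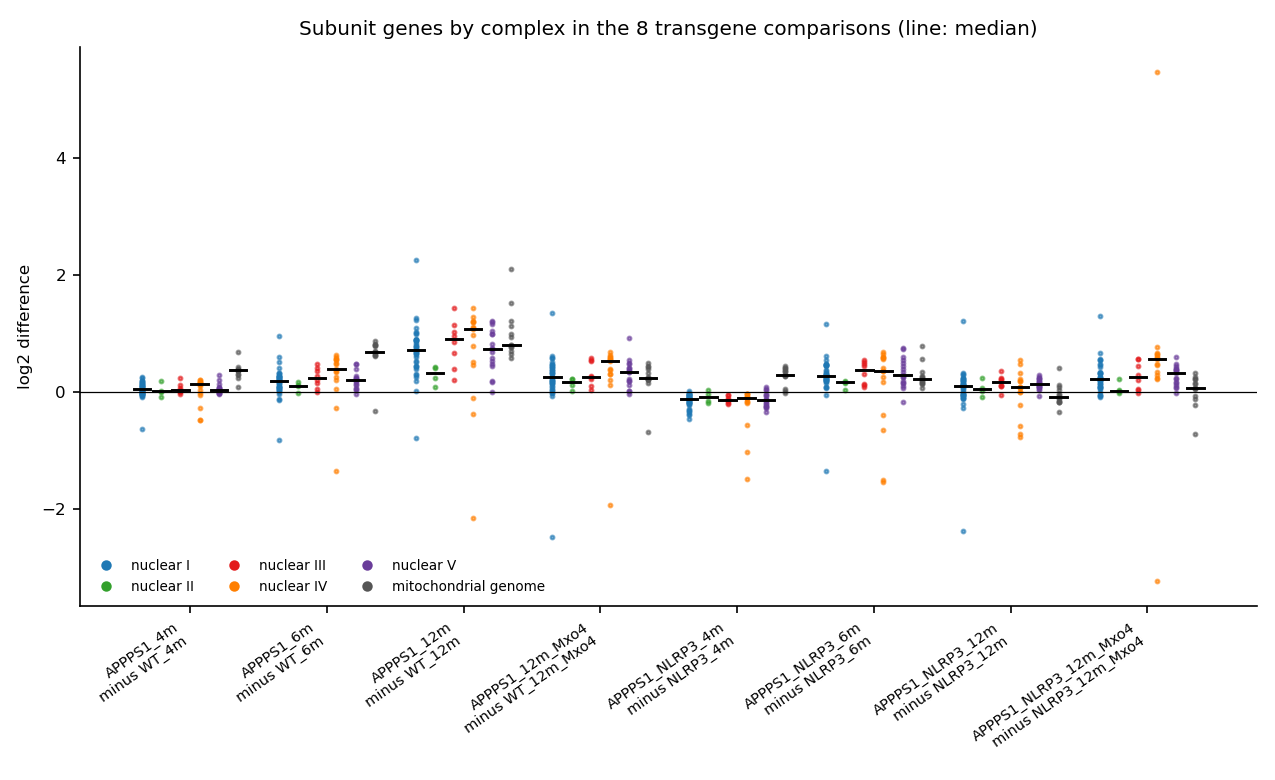
Log2 difference of each subunit, transgenic minus non-transgenic, by complex and genome in the 8 comparisons, with a line at the median. The 12-month comparison with Nlrp3 present stands highest in complex IV (median 1.08), and 1 point of a scarcely expressed isoform, Cox4i2, lies at 5.47.

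**Figure D4:**
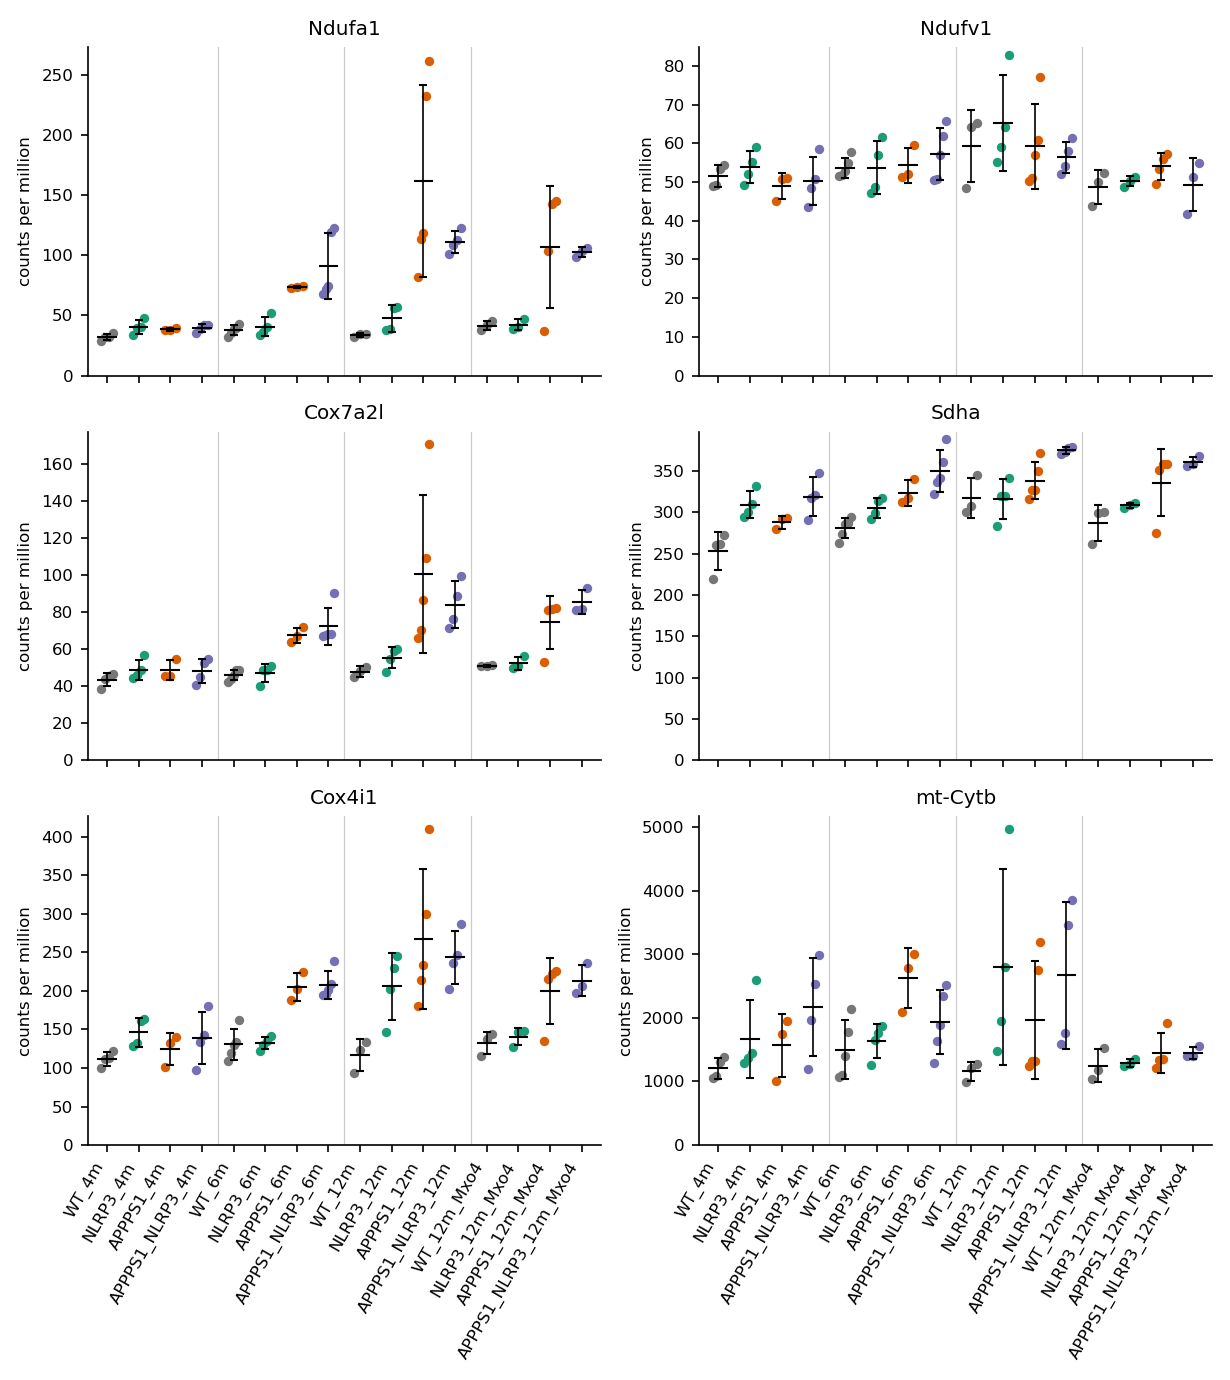
TMM-scaled CPM of Ndufa1, Ndufv1, Cox7a2l, Sdha, Cox4i1 and mt-Cytb in the 16 groups, points for libraries and bars for the mean ± SD. Ndufa1 and Cox7a2l are high in the transgenic groups from 6 months on, while the group means of Ndufv1 stay between 48.7 and 65.2 CPM.

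The loss of Nlrp3 in mice without the transgenes left these genes uncalled by edgeR except at 12 months. NLRP3_4m against WT_4m called 0 subunits, beside 0.378% of all genes, with 10 at an unadjusted p under 0.05 and 1 by DESeq2. The smallest p was that of mt-Nd3, 3.66 against 0.909 CPM on average (1.98 ± 0.60, edgeR adjusted p = 0.160). NLRP3_6m against WT_6m called 0, beside 0.443% of all genes, with 1 at an unadjusted p under 0.05 (Cox6b2) and 0 by DESeq2. NLRP3_12m_Mxo4 against WT_12m_Mxo4 called 0, beside 0.0956% of all genes, with 1 at an unadjusted p under 0.05 (Cox4i2) and 0 by DESeq2.

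In NLRP3_12m against WT_12m mitochondrial and nuclear genes were called in equal number. Of the mitochondrial genes 4 of 13 were called higher and of the nuclear ones 4 of 82, beside 0.443% of all genes called higher (88 higher and 204 lower; 93 and 123 with RLE scaling). The mitochondrial median was 1.43 and all 13 differences were positive, while the nuclear median was 0.40. The 4 mitochondrial genes encode complex I and IV core subunits: mt-Nd3 (3.03 ± 0.72, edgeR adjusted p = 0.0197), mt-Nd5 (1.51, 0.0205), mt-Nd6 (1.43, 0.0349) and mt-Co1 (1.47, 0.0498). Mt-Nd3 was scarce, at 0.426 to 0.671 CPM in WT_12m and 0 to 7.51 CPM in NLRP3_12m, and its counts are uncertain because of its nuclear copy. The nuclear genes were all of complex IV: Cox4i1 (0.84, adjusted p = 0.0180), Cox8a (1.15, 0.0275), Cox6a1 (1.01, 0.0282) and Cox5b (0.78, 0.0419).

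Mt-Cytb was 1481, 4972, 2807 and 1952 CPM in NLRP3_12m against 1158 ± 149 in WT_12m, so all 4 libraries lay above the wild-type mean but far apart from each other (1.33, edgeR adjusted p = 0.0547). Cox4i1 was 147, 245, 203 and 230 CPM against 123, 92.9 and 133, without overlap. Replicate 47, whose mitochondrial share was 2.05%, decided this result: without it 0 subunits were called by edgeR. Without replicate 42, the library with the lowest mitochondrial share of the group, 23 were called. With the first title number added as a term, 1 was called. Marker sums of other cells also differed between NLRP3_12m and WT_12m: astrocyte markers summed to 1653 to 3112 CPM against 465 to 655, and neuronal markers to 124 to 854 against 35.2 to 248, with replicate 47 highest at 854. The 10 astrocyte markers had a median log2 difference of 0.81 and a highest of 2.55, with 1 called, so the sum can rest on few genes. In NLRP3_12m_Mxo4 against WT_12m_Mxo4, 8 of them were negative (median -0.15), with 1 called higher and a highest value of 2.95. Endothelial markers were lower, 108 to 236 against 386 to 627 CPM. Neutrophil markers reached 1182 CPM in replicate 45. The part of these cells was not tested, and genotype and sex cannot be told apart in this comparison.

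Nlrp3 loss in transgenic mice was followed by few called subunits. At 4 months 0 were called (0.206% of all genes; 1 at an unadjusted p under 0.05, mt-Nd3 at 1.799; 0 by DESeq2). At 6 months 0 were called (0.488% of all genes; 3 at an unadjusted p under 0.05; 0 by DESeq2), with Ndufv3 nearest at 0.44 (edgeR adjusted p = 0.223). In the tagged set 0 were called (0.287% of all genes; 1 at an unadjusted p under 0.05; 0 by DESeq2).

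At 12 months, APPPS1_NLRP3_12m against APPPS1_12m had 3 subunits called lower, beside 3.3% of all genes called lower, and the groups differ in sex. They were 2 complex I genes, the iron-sulfur subunit Ndufs8 (-0.41, edgeR adjusted p = 0.0311) and Ndufs4 (-0.50, 0.0492), and the scarce Ndufa4l2 (-2.45, 0.0477). Nuclear genes had a median of -0.23 and mitochondrial ones of 0.52, with mt-Co1 at 0.90 (adjusted p = 0.0897). Without APPPS1_12m replicate 37, 26 were called, and without APPPS1_NLRP3_12m replicate 44, 0. With replicates 35 and 41 of APPPS1_12m left out, 2 were called and Ndufs4 stood at 0.13, and with the first title number added as a term 0 were called. All 11 neuronal markers had a positive difference (median 2.196, 3 called) and all 10 endothelial ones a negative one (median -1.68, 7 called); their part was not tested.

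Whether the transgenes acted differently with and without Nlrp3 was tested as an interaction at each age. By edgeR 0 subunits passed in all 4 tests, where 0.0% of all genes were called at 4 months, 0.0151% at 6, 0.0% at 12 and 0.0% in the tagged set. At 12 months 64 subunits had an unadjusted p under 0.05 and DESeq2 called 5. The shares of all genes for these counts are not given here, so they are not read as a result about the subunits. The untagged 12-month groups with Nlrp3 were all female and those without it all male. Nlrp3 and sex therefore cannot be told apart in that interaction. The nuclear median was -0.61 and the mitochondrial median -0.92, with Ndufs8 (-0.71 ± 0.18, edgeR adjusted p = 0.131), Cox4i1 (-0.98 ± 0.26, 0.139) and Uqcrh (-1.08 ± 0.29, 0.141) nearest. Leaving out single libraries raised the edgeR adjusted p of Ndufs8, Cox4i1 and Uqcrh to as much as 0.352, 0.391 and 0.409. Without APPPS1_12m replicate 37, 20 subunits were called, and the share of all genes called that way is not given here. At 4 months, 6 months and in the tagged set 0, 1 and 1 subunits had an unadjusted p under 0.05, and DESeq2 called 0 in each.

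With age, subunits were called higher in both transgenic genotypes. APPPS1_12m against APPPS1_4m, which shares APPPS1_12m with the comparison above, had 70 nuclear subunits called higher of 82, beside 13% of all genes (2578 higher and 1852 lower; 2227 and 2444 with RLE scaling). These were 34 of complex I, 2 of II, 8 of III, 11 of IV and 15 of V. Medians were 0.76 for nuclear and 0.31 for mitochondrial genes, and 0 of 13 mitochondrial genes were called by edgeR. Of 8 neutrophil and 8 monocyte markers, 4 each were called higher (medians 2.45 and 1.79), and their part was not tested. Without replicates 35 and 41, 26 nuclear subunits (31.7%) were called, beside 7.65% of all genes, with medians of 0.40 and -0.26. Ndufa1 gave 2.08 (edgeR adjusted p = 4.47e-07) with all libraries and 1.399 (4.84e-05) without the 2.

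APPPS1_NLRP3_12m against APPPS1_NLRP3_4m had 41 nuclear subunits called higher, beside 7.25% of all genes, with medians of 0.51 for nuclear and 0.35 for mitochondrial genes. They were 18 of complex I, 0 of complex II, 4 of III, 7 of IV and 12 of V, and the 4-month group was female and the 12-month group male. Ndufa1 gave 1.49 (edgeR adjusted p = 5.12e-05), Cox7a2l 0.80 and Cox4i1 0.81. Uqcrq, a small complex III subunit, gave 0.74 and Atp5h, of the stalk of the ATP synthase, 0.59. Atp5b rose by 0.31 (adjusted p = 0.0240), whereas Sdha (0.23, 0.0701), Uqcrc1 (0.13) and Ndufs1 (-0.00) were not called.

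In the groups without the transgenes edgeR called 0 subunits with age. WT_12m against WT_4m stood beside 0.0252% of all genes, with 1 subunit at an unadjusted p under 0.05 and 1 by DESeq2. That subunit was Sdha, from 253 ± 23.2 to 318 ± 23.9 CPM (0.32, edgeR adjusted p = 0.625). NLRP3_12m against NLRP3_4m stood beside 0.418% of all genes, with 27 at an unadjusted p under 0.05, 0 by DESeq2 and a mitochondrial median of 0.74. The difference between the ages' effects in the 4 genotypes was not tested.

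The tagged 12-month groups were set against the untagged ones of the same genotype. WT gave 0 called subunits, beside 0.166% of all genes, with 3 at an unadjusted p under 0.05 and 0 by DESeq2. NLRP3 had 9 called lower, beside 4.56% of all genes called lower (410 higher and 906 lower; 221 and 1111 with RLE scaling). Among them were Cox8a (-1.07), Cox6a1 (-0.92), mt-Co1 (-1.31), mt-Cytb (-1.17) and mt-Nd5 (-1.16). With the first title number added as a term 0 were called, and without NLRP3_12m replicate 47 also 0. All 11 neuronal markers were lower as well (median -3.74, 7 called), and their part was not tested. This comparison shares the NLRP3_12m libraries with NLRP3_12m against WT_12m.

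APPPS1 had 19 subunits called lower with the tag, beside 3.68% of all genes, with medians of -0.38 for nuclear and -0.44 for mitochondrial genes. Ndufa4l2 gave -4.09 (edgeR adjusted p = 0.00847), Ndufc2 -0.71, Ndufv2 -0.51 and Atp5f1 -0.40, and 1 subunit was called without APPPS1_12m replicates 35 and 41, and 1 with the first title number added as a term. Endothelial markers were lower too (7 of 10 called, median -1.45), and their part was not tested. APPPS1_NLRP3 gave 0, beside 0.916% of all genes, with 13 at an unadjusted p under 0.05 and 0 by DESeq2. Of those 13, 11 were mitochondrial, whose median was -1.06, and mt-Co3 (-2.25, edgeR adjusted p = 0.112) was nearest.

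Genes around the chain were counted from lists in the same 12-month comparison, APPPS1_12m against WT_12m, where 11.1% of all genes were called higher. Replicates 35 and 41 of APPPS1_12m, on which the breadth of that comparison rested, are included in these counts. Without them 6.39% of all genes were called higher, and the lists are not counted that way here. Of 46 assembly factors, 11 were called higher and 0 lower (median 0.25), among them Ndufaf8 (0.98), Uqcc2 (0.86) and Coa5 (0.78). Of 78 mitochondrial ribosomal proteins, 30 were called higher and 1 lower (median 0.34), with Mrpl54 at 1.21. Of 18 genes of the citrate cycle and pyruvate entry, 2 were called higher (Suclg2 0.59, Dlst 0.28) and 1 lower (Idh2 -0.66). Of 15 cytochrome c and carrier genes, 6 were called higher and 1 lower, with Cycs, cytochrome c itself, at 0.52, the phosphate carrier Slc25a3 at 0.33 and Sqor at -0.43. Of 22 genes of mitochondrial genome expression and biogenesis, 1, Slirp (0.73), was called. The last 22 and the 18 citrate cycle genes were thus called at or below the share of all genes.

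Cytosolic ribosomal proteins moved further: 76 of 77 were called higher at 12 months (median 1.54), with Rpsa at 1.78. This count, too, includes replicates 35 and 41 of APPPS1_12m. In the other comparisons with Nlrp3 present, 0 were called by edgeR at 4 months, 4 at 6 months (median 0.48, beside 2.06% of all genes) and 40 in the tagged set (0.73, beside 3.44%). Without Nlrp3, 0 were called at 4 months, 74 at 6 months (0.94, beside 6.16%), 26 at 12 months (0.53, beside 5.53%) and 15 in the tagged set (0.63, beside 3.5%). At 4 months 0 of the 77 had an unadjusted p under 0.05 in either comparison, with medians of 0.12 and -0.13.

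Among the 16 group means of log2 CPM, Ndufa13 (Pearson's r = 0.988), Atp5mpl (0.988) and Cox7a2 (0.987) followed the nuclear sum most closely, each being a part of it. Lowest were Ndufa4l2 (-0.367), Cox8b (-0.266) and Cox6b2 (-0.139), the scarce isoforms. Mt-Cytb (0.996), mt-Nd4 (0.989) and mt-Nd1 (0.989) followed the mitochondrial sum, and the nuclear genes nearest to it were Ndufb9 (0.817) and Cox8a (0.797). Mt-Nd3 (0.768) and mt-Co3 (0.782), both with nuclear copies, followed it less closely. These 16 points share library depth and scaling and are given as a description.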

How the data were processed

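The deposited values were raw gene counts in 1 matrix, a column per library, for 62 libraries. Per the labels' protocols, the authors isolated RNA with a miRNA easy kit, made libraries from 10 ng of RNA with SMART-Seq v4 in 2 batches, in pools of 7 to 8, and sequenced pairs of 125 bp on a HiSeq instrument. The submitters' processing notes name Trimmomatic, TopHat, HTSeq and mm10. Settings for strand and for reads with several alignments are not given in the sources used here. The kit does not mark strand, and 39 of the 97 subunit genes share exon bases with another gene.

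Counts were fitted with edgeR 4.0.16 (R 4.3.3) in 1 quasi-likelihood model over all 62 libraries, with a term per group and 1 for the second of 3 numbers in the titles, which has 2 values and is not stated to be the batch. filterByExpr (min.count 10, min.total.count 15), TMM scaling and Benjamini-Hochberg adjustment over 19865 genes were used, with a threshold of 0.05. The third title number is the replicate number. The 28 comparisons covered the transgenes, Nlrp3, age, the tag and the interaction. DESeq2 1.42.0, no filter, RLE scaling, other terms and left-out libraries were alternatives. Named subunits were the mitochondrial genes, set core subunits and isoforms, and those with the smallest adjusted p in each direction, complex and genome, or the 3 smallest p where none was called. Lists of markers and of genes around the chain are counted, not tested. Members and lists were chosen with earlier results of these data known. Gene models were GENCODE on GRCm38, and copies were sought with blastn 2.17.0 (at least 100 bases at 98% identity). The model was checked on simulated counts drawn with the same dispersion for every gene and no outlying library. That check cannot speak to results that rest on single libraries. PCR copies count as reads, and depth limits precision by counting error only.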

Additional observations from a re-analysis of the deposited data

Results flagged for a closer look

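In 90 sets of 4 or 5 libraries of 1 group, the highest or lowest library was compared with the gap it leaves to the next, by Dixon's criterion, and 9 stood apart. Chance alone gives about 1 in 20. NLRP3_4m replicate 8 was high in 3 of them: its mitochondrial share was 1.026% against 0.4655% to 0.5603% in the rest of the group, mt-Cytb was 2591 CPM against 1283 to 1443, and mt-Nd3 was 4.829 CPM against 3.193 to 3.337. The library labelled APPPS1_12m_Mxo4 replicate 56 was low in 3: Cox7a2l at 52.96 CPM against 81.01 to 82.35, Cox4i1 at 135.2 against 215.4 to 226.2, and Sdha at 274.9 against 351.9 to 359.2. APPPS1_12m_Mxo4 replicate 57 had a mitochondrial share of 0.6997% against 0.4339% to 0.4616%. APPPS1_NLRP3_6m replicate 31 had Cox7a2l at 90.17 CPM against 66.99 to 68.43. APPPS1_12m replicate 35 had mt-Nd3 at 7.555 CPM against 0.6366 to 1.736.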

How the results depend on the processing

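No paired analysis was possible because no 2 libraries carry the same replicate number; the first title number, which libraries of different groups do share, was added as a term instead. Counts of subunits called are given with the reported count in brackets. Leaving out APPPS1_12m replicates 35 and 41, chosen after seeing the data, gave 13 (67) for APPPS1_12m against WT_12m, 26 (70) for APPPS1 with age and 1 (19) for the APPPS1 tag comparison. DESeq2 gave 4 (2) for APPPS1_NLRP3_12m_Mxo4 against NLRP3_12m_Mxo4, 1 (0) for NLRP3_4m against WT_4m, 16 (8) for NLRP3_12m against WT_12m, 1 (0) for WT with age, 21 (9) for the NLRP3 tag comparison and 5 (0) for the 12-month interaction. With no filter on low counts NLRP3_12m against WT_12m gave 3, APPPS1_NLRP3_12m against APPPS1_12m 0 (3), and the NLRP3 and APPPS1 tag comparisons 2 and 5. With the first title number added, APPPS1_6m against WT_6m gave 0 (3), NLRP3_12m against WT_12m 1, APPPS1_NLRP3_12m against APPPS1_12m 0, and the tag comparisons 0 and 1. Groups as the only terms gave 1 (3) for APPPS1_12m_Mxo4 against WT_12m_Mxo4. RLE scaling gave 1 there, 1 for APPPS1_NLRP3_12m against APPPS1_12m and 17 for the NLRP3 tag comparison. Leaving out libraries under 10000000 counts gave 7 for APPPS1_12m_Mxo4 against WT_12m_Mxo4, 14 (7) for APPPS1_NLRP3_6m against NLRP3_6m, 6 for APPPS1_NLRP3_12m_Mxo4 against NLRP3_12m_Mxo4, 1 for NLRP3_4m against WT_4m, 5 for NLRP3_12m against WT_12m and 1 for the APPPS1 tag comparison.

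Libraries whose second title number is 1 gave 11 for APPPS1_12m_Mxo4 against WT_12m_Mxo4, 1 for APPPS1_NLRP3_6m against NLRP3_6m, 1 (2) for APPPS1_NLRP3_12m against NLRP3_12m, 0 for APPPS1_NLRP3_12m against APPPS1_12m, 30 for APPPS1 with age and 0 for its tag comparison. Those with 2 gave 1 for APPPS1_6m against WT_6m, 14 for APPPS1_NLRP3_6m against NLRP3_6m, 8 for APPPS1_NLRP3_12m_Mxo4 against NLRP3_12m_Mxo4, 50 for APPPS1_NLRP3_12m against APPPS1_12m and 8 (41) for APPPS1_NLRP3 with age. Directions reversed for Ndufs4 in APPPS1_NLRP3_12m against APPPS1_12m (0.0528 with second number 1, 0.13 without replicates 35 and 41) and for Cox7b (0.0212) and Uqcrh (0.0264) in the APPPS1 tag comparison with second number 1. The cause was not tested.

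Leaving out 1 library at a time gave 50 to 71 for APPPS1_12m against WT_12m and 57 to 72 for APPPS1 with age. The other ranges are given with the library, by group and replicate, whose absence gave each end. They were 0 (APPPS1_6m 22, among others) to 3 for APPPS1_6m against WT_6m, 1 (APPPS1_12m_Mxo4 57) to 22 (56 of that group) for APPPS1_12m_Mxo4 against WT_12m_Mxo4, and 4 (APPPS1_NLRP3_6m 31) to 20 (29 of that group) for APPPS1_NLRP3_6m against NLRP3_6m. They were 1 (APPPS1_NLRP3_12m 43) to 3 (44) for APPPS1_NLRP3_12m against NLRP3_12m and 1 (APPPS1_NLRP3_12m_Mxo4 53) to 2 in its tagged counterpart. For NLRP3_12m against WT_12m they were 0 (NLRP3_12m 47) to 23 (42), for the NLRP3 tag comparison 0 (47) to 27 (42), and for NLRP3 with age 0 to 6 (42). For APPPS1_NLRP3_12m against APPPS1_12m they were 0 (APPPS1_NLRP3_12m 44) to 26 (APPPS1_12m 37), for the APPPS1 tag comparison 1 (APPPS1_12m 35) to 52 (37), for the 12-month interaction 0 to 20 (37) and for APPPS1_NLRP3 with age 23 (APPPS1_NLRP3_4m 9) to 37.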
